A study of Bos taurus with 8 samples.

Results

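The genes described here are those of moderate level in bovine alveolar macrophages. A gene was included where the plain mean of its deposited values over 8 libraries was at least 100 and below 1000 CPM (reads per 1000000 reads assigned to genes). That rule kept 43 of the 1153 genes in the table, at ranks 38 to 80 in mean level. The genes were thus chosen by their mean level, which is given as a description with no test. Just inside the upper bound lay rank 38 with a mean of 907 CPM, and just outside it rank 37 with 1016. Just inside the lower bound lay rank 80 with 105 CPM, and just outside it rank 81 with 91.5.

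MicroRNAs are short RNAs cut from hairpin precursors and loaded into Argonaute proteins, where they pair with messenger RNAs and lower their stability or translation. Pairing runs mainly through the seed near the 5′ end of the microRNA. Alveolar macrophages are the resident phagocytes of the air spaces, which clear inhaled particles and microbes, and microRNAs of macrophages are known for tuning their inflammatory responses.

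The study sequenced small RNA of alveolar macrophages washed from the lungs of 8 cattle (Bos taurus), with 1 library for each animal. All libraries belong to 1 group, and the labels name no treatment beyond the culture. The cells had been frozen, were thawed and kept in a flask for 24 hours at 37 °C and 5% CO2 in RPMI medium with 10% fetal bovine serum, antibiotics and an antifungal agent, and the cells that adhered were lysed. The serum comes from the same species, and the part of RNA carried over from it was not tested. The table names genes by Ensembl identifiers, and 0 of them could be paired with a microRNA name, so the genes below go by rank, with 4 identifiers printed. For the same reason the labelled cell type could not be checked against marker microRNAs, and no sequences are shown.

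The libraries held 3638161 to 5888148 assigned reads, and 1 read was worth 0.170 to 0.275 CPM. Every one of the 43 genes had reads in each animal, 660498 in all, and the fewest in any library were 52. The library of animal 8 stood apart. Across the 43 genes its correlation with the other libraries (Pearson's r of log2(CPM + 1)) ranged from 0.267 to 0.630, while pairs among animals 1 to 7 ranged from 0.705 to 0.919. Such an r is taken over genes, and genes are no independent replicates. Results that rest on animal 8 are given with and without it.

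As a class, the 43 genes held 1.65% ± 0.199 (SD, n = 8) of the assigned reads. The share was lowest in animal 7, at 1.41%, and highest in animal 6, at 1.95%, with a median of 1.62%. Most reads of every library belong to 3 genes with means at or above 10000 CPM, which held 88.4% ± 1.11 (SD, n = 8). Rescaled to the reads outside those 3 genes, the 43 genes held 14.2% ± 0.908 (SD, n = 8). On that scale animal 1 had the highest share, 15.7%, and animal 7 again the lowest, 12.6%. The order of the animals thus depended on whether the leading genes were counted, with animal 7 at the bottom both ways.

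The summed share of the 43 genes was set against 4 other measures of the libraries over the 8 animals (two-sided exact permutation tests, Benjamini-Hochberg adjusted over the 4 relations). It was lower where the 3 leading genes took more reads (r = -0.87, exact p = 0.0083, adjusted p = 0.033; rho = -0.79, exact p = 0.028, adjusted p = 0.049), and r was -0.92 without animals 1 and 6, the farthest on that measure. It was higher where the 34 genes with means from 1000 to under 10000 CPM took more (r = 0.81, exact p = 0.019, adjusted p = 0.039; rho = 0.79, exact p = 0.028, adjusted p = 0.049), and r was 0.88 without the same 2 animals. On the scale without the leading genes r for this second relation was -0.97, a value that the scale fixes, because the 2 classes then hold nearly all reads, and no p is given for it. Shares of a library sum to a whole, so the relations on the deposited scale are in large part built in too. The 43 genes held 12.6 to 15.7% of the reads outside the 3 leading genes in every animal. The leading genes and the 34 genes together hold nearly all reads, so their 2 relations are near mirror images. The p values of the 2 do not count as separate support.

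With 1 animal left out, r stayed between -0.95 and -0.80 for the leading genes and between 0.71 and 0.92 for the genes from 1000 to under 10000 CPM, while the adjusted p, now over 7 animals, often exceeded 0.05. For the leading genes the adjusted p of the exact test was 0.088 without animal 2, 0.063 without animal 3, 0.071 without animal 4, 0.077 without animal 5 and 0.16 without animal 6, and it was 0.010, 0.022 and 0.044 without animals 1, 7 and 8. For the genes from 1000 to under 10000 CPM it was 0.090, 0.068, 0.090, 0.077 and 0.16 without those same animals in turn, and 0.052 without animal 8, and it was 0.010 and 0.022 without animals 1 and 7. With the 63 genes of 10 to under 100 CPM the relation did not pass on r (0.57, exact p = 0.13, adjusted p = 0.18), although it passed on rho (0.76, exact p = 0.037, adjusted p = 0.049). Without animals 7 and 8 that r was 0.79, and without animal 8 alone it was 0.85 (exact permutation test, adjusted p = 0.044). On the scale without the leading genes r was 0.16 (exact p = 0.70, adjusted p = 0.89). No relation to the number of assigned reads passed (r = 0.14, exact p = 0.74, adjusted p = 0.74; rho = 0.17, exact p = 0.70, adjusted p = 0.70), and r without animals 2 and 3 was 0.37.

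The mean was 500 CPM or more in 13 of the 43 genes, 200 to under 500 in 16, and under 200 in 14. In single animals the levels often left the band: 20 genes lay between 100 and 1000 CPM in all 8 animals and 23 did not. All but 1 had a median of at least 100 CPM; the exception was rank 73, with a median of 58.8, which reached the band through animal 8.

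**Figure D1:**
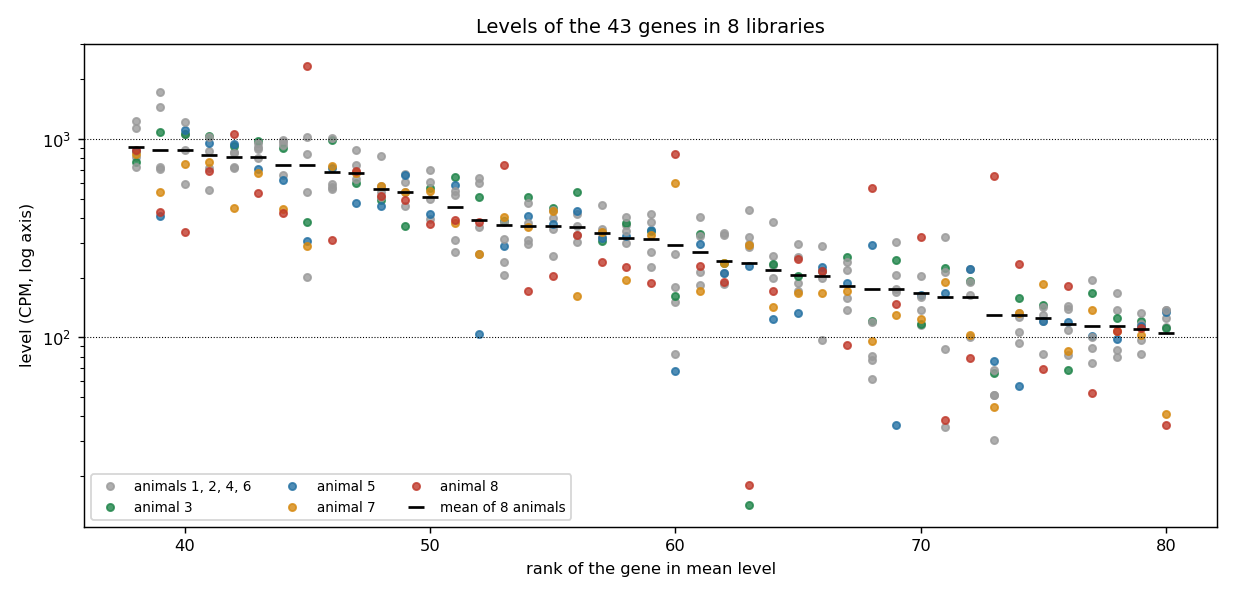
Level of each of the 43 genes in the 8 libraries (y axis, CPM, log scale) by rank in mean level (x axis), with 1 point per animal, a bar at the mean, and dotted lines at 100 and 1000 CPM. Points of animal 8 leave the column of the others at ranks 45, 60, 63, 68 and 73, and at rank 63 those of animals 3 and 8 lie at 14.3 and 17.9 CPM.

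The 2 genes of highest mean differed in how evenly the animals shared them. Rank 38 stood at 1236, 811, 766, 718, 871, 1138, 838 and 880.3 CPM in animals 1 to 8, a mean of 907 ± 182 (SD, n = 8). Rank 39 stood at 709, 718, 1085, 1443, 409, 1716, 538 and 428 CPM, a mean of 881 ± 487 (SD, n = 8). The means are close, yet the highest animal exceeded the lowest 1.72-fold at rank 38 and 4.20-fold at rank 39, where animals 3, 4 and 6 were above the other 5. At the other end, rank 79 averaged 109.7 ± 15.7 CPM (SD, n = 8) and rank 80 averaged 105 ± 42.0 (SD, n = 8).

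The next question was how stable each gene was between animals. Spread was measured as the SD of log2(CPM + 1), on which 1 unit is a doubling. Its median over the 43 genes was 0.48, with quartiles at 0.36 and 0.62, beside a median of 0.45 over the 143 genes of the table whose mean reached 10 CPM. The median coefficient of variation was 30.6%, and counting error alone would give 2.54%. Even the steadiest of the 43 genes varied 3.31 times as much as counting error. Each animal gave 1 library, so differences between animals, cultures and library preparations cannot be told apart, nor can fewer cells of a type be told from less RNA per cell.

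The ratio of the highest to the lowest animal had a median of 2.76. It was under 2 in 10 of the 43 genes, 23.3%, where 21.7% of all 143 genes had so small a ratio. It was at least 4 in 10 genes, again 23.3%, beside 23.8% of all 143. Both shares lie close to the background. An SD of at least 1 was found in 6 genes, 14.0%, where 10.5% of all 143 genes reached it. Without animal 8, only 3 of the 43 genes had such an SD.

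**Figure D2:**
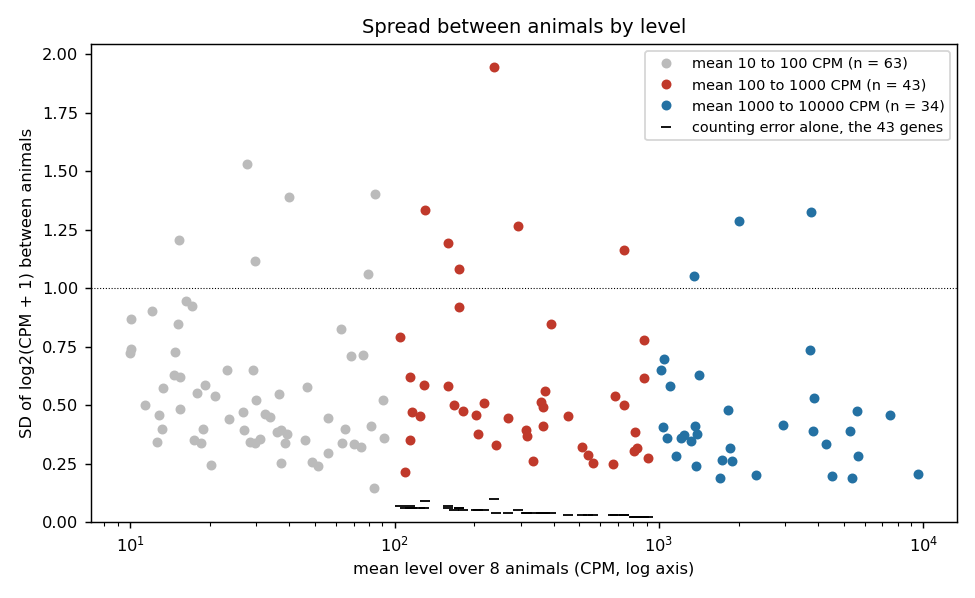
SD of log2(CPM + 1) between the 8 animals (y axis) against mean level (x axis, CPM, log scale) for 140 genes with means from 10 to under 10000 CPM; black bars give the SD that counting error alone would cause in the 43 genes. The 43 genes (red) span 0.21 to 1.95, all above their counting error, and overlap the other classes.

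Of the 6 steadiest genes on the deposited scale, ranks 38, 47, 48, 49 and 57 lay in the upper part of the band, and rank 79 lay near its lower end. This list depended on the scaling. Rescaled without the 3 leading genes, ranks 38, 47, 48, 49 and 57 had SDs of 0.33, 0.30, 0.26, 0.33 and 0.35. Ranks 41, 50, 62 and 65 had 0.25, 0.26, 0.23 and 0.28 there, and were thus steadier than ranks 38, 47, 49 and 57. ENSBTAG00000029912, at rank 79, had the smallest SD, 0.21. It stood at 82.0, 97.1, 121, 117, 114, 133, 103 and 111 CPM in animals 1 to 8. The level in animal 1 was the lowest, and no animal exceeded another by more than 1.63-fold. Its SD was 0.12 after rescaling without the 3 leading genes, 0.13 with median-of-ratios factors (library factors set by the middle ratio over genes), and 0.15 on the deposited scale without animal 1.

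ENSBTAG00000029810, at rank 47, had an SD of 0.25, with 876, 680.5, 602, 625, 478, 738, 676 and 688 CPM in animals 1 to 8. Animal 5 was lowest, and without it the SD was 0.18. At rank 48 the SD was also 0.25, but the pattern was another: 817 CPM in animal 4, and 581, 539, 492, 459, 511, 576 and 514 CPM in animals 1, 2, 3, 5, 6, 7 and 8. Without animal 4 its SD was 0.12.

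Rank 57 (SD 0.26) stood at 463, 349.6, 305, 321, 316, 339, 339.7 and 241 CPM in animals 1 to 8. Animals 2 to 7 lay between 305 and 349.6, with animal 1 above them and animal 8 below. Rescaled without the leading genes, its SD was 0.35. Animal 1 had the largest share of those genes, 89.9%. Rank 38, described above, had an SD of 0.27. Rank 49 (SD 0.29) stood at 608, 459.7, 366, 669, 655, 539, 540.1 and 490.4 CPM, lowest in animal 3, and at 0.21 without that animal.

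The most variable genes were then examined for gaps between animals. For each gene the largest gap between neighbouring values on the log2 scale was taken. A gene was described as split where that gap was at least 1, a doubling, and left 2 or more animals on each side, and as having 1 animal apart where a gap of that size left a single animal. Of the 43 genes, 5 were split (11.6%), where 6.99% of all 143 genes were, and 4 had 1 animal apart (9.30%), where 7.69% of all 143 did. The same 5 and 4 counts were found after rescaling without the 3 leading genes. Animal 8 lay on the smaller side of the gap in 7 of these 9 genes, low in 3 and high in 4. The 4 include rank 73, which is in the class only through animal 8. Without animal 8, 0 genes were split and 7 had 1 animal apart. In each of the 5 split genes the smaller set was 2 animals, 1 of them animal 8. None could therefore stay split at that gap without it, and the 0 says nothing about stability. Without animal 7, 3 were split and 7 had 1 apart, and without animal 2, 4 were split and 7 had 1 apart.

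ENSBTAG00000048038, at rank 63, had the widest gap and the largest SD, 1.95. It stood at 436, 286, 322, 228, 297 and 292 CPM in animals 1, 2, 4, 5, 6 and 7. In animal 3 the level was 14.3 CPM, from 52 reads (exact Clopper-Pearson 95% interval 10.7 to 18.7), and in animal 8 it was 17.9 CPM, from 83 reads (14.3 to 22.2). The 2 intervals overlap, and the step from animal 8 up to animal 5, the lowest of the other 6, was 12.7-fold. The gap was 3.60 on the log2 scale and 3.82 without the leading genes. In the order of genes within each animal, it ranged from rank 51 to rank 134. Without animal 8 the SD was 1.66, with animal 3 then alone on the low side. These intervals cover counting error only, as no molecular identifiers are described.

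Rank 71 had a related pattern, with different low animals. It stood at 86.9, 35.1, 223, 319, 167, 214, 189 and 38.3 CPM in animals 1 to 8. Animals 2 and 8 were low, from 155 and 177 reads, and the step to animal 1 was 2.27-fold. Animal 1 was itself below the remaining 5, so the values run over a wide range rather than forming 2 tight sets. Its SD was 1.19, and 1.06 without animal 8.

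Rank 80 had the tightest upper set of the split genes. In animals 1 to 6 it stood at 137, 113, 112, 125, 134 and 138 CPM, a mean of 127 ± 11.6 (SD over 6 animals). In animals 7 and 8 it stood at 40.9 and 36.1 CPM, from 226 and 167 reads, with overlapping intervals of 35.7 to 46.6 and 30.8 to 42.0. The step between the sets was 2.74-fold, and the groups of animals did not overlap. The sets were read from the same values, so no test was made.

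Rank 60 set the same 2 animals apart in the opposite direction. Levels of 599 and 843 CPM were found in animals 7 and 8, and of 151, 263, 162, 82.2, 67.4 and 179 CPM in animals 1 to 6. The step was 2.28-fold and the whole range 12.5-fold, the SD 1.27, and 1.04 without animal 8. Unlike rank 80, the lower set was itself broad, and animals 4 and 5 were its lowest.

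Rank 68 was high in animals 5 and 8, at 292 and 565 CPM. In animals 1, 2, 3, 4, 6 and 7 it stood at 76.7, 80.6, 120.4, 61.4, 119 and 95.3 CPM. The step was 2.42-fold. Its SD of 1.08 was 0.73 without animal 8, where animal 5 remained above the rest.

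Among the 4 genes with 1 animal apart, animal 8 was the high one in 2, of which rank 73 is in the class only through that animal. ENSBTAG00000029844, at rank 73, stood at 30.3, 51.4, 66.2, 51.2, 76.3, 68.1 and 44.5 CPM in animals 1 to 7 and at 651 CPM in animal 8, from 3012 reads (exact Clopper-Pearson 95% interval 628 to 675). The step of 8.53-fold was second to that of rank 63. Its SD of 1.33 was 0.44 without animal 8, where the median of the class was 0.38. Rank 45 stood at 538, 841, 383, 201, 305, 1025 and 287 CPM in animals 1 to 7 and at 2333 in animal 8. Here the other 7 animals were uneven too, and the SD of 1.16 was still 0.86 without animal 8.

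In the other 2 genes animal 5 was the low one. Rank 52 stood at 263, 359, 511, 633, 104, 600.0, 264 and 383 CPM in animals 1 to 8. Rank 69 stood at 176, 169, 244, 301, 36.1, 207, 129.8 and 148 CPM. Animal 5 lay 2.53-fold below the next animal at rank 52 and 3.59-fold below it at rank 69. Both genes were highest in animal 4. The SDs were 0.85 and 0.92, and without animal 5 they were 0.52 and 0.42.

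**Figure D3:**
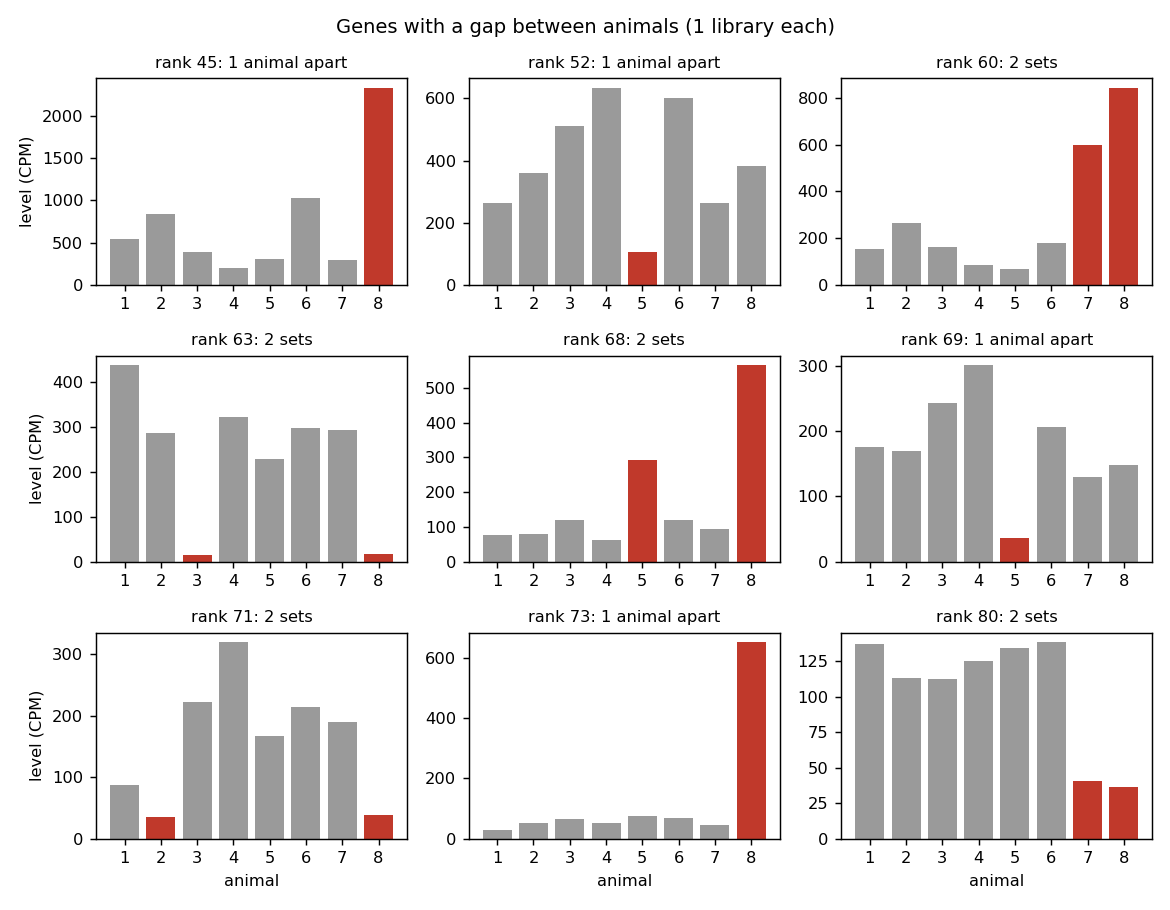
Level (y axis, CPM, from 0) in each animal (x axis, 1 library each) for the 9 genes whose largest gap reached 1 on the log2 scale; red bars mark the animals on the smaller side of the gap. Animal 8 is red in 7 panels, and ranks 60 and 80 set animals 7 and 8 apart in opposite directions.

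The distance of animal 8 was not confined to the genes with a gap. It was at least 2-fold away from the median of the 8 animals in 13 of the 43 genes, above in 6 and below in 7. The 13 include the 7 gap genes with animal 8 on the smaller side, ranks 45, 60, 63, 68, 71, 73 and 80. Of these, rank 73 is in the class only through animal 8. Outside the genes with a gap they were ranks 40, 46, 53, 54, 70 and 72. In the other animals the count of genes at least 2-fold away ran from 1 to 5. No share over the wider set of genes is given for it, nor for the lowest and highest counts below. Animal 8 was the lowest of the 8 in 14 genes and the highest in 9. Rescaled without the leading genes it was the lowest in 17 and the highest in 9, and with median-of-ratios factors in 15 and 9. Animal 4 was the highest in 14 genes on the deposited scale, and in 10 without the leading genes, where animal 1 went from 4 to 10 and animal 6 from 8 to 3. Animal 3 went from 7 to 4 there and animal 5 from 0 to 5. The number of genes highest in animals 1, 3, 4, 5 and 6 therefore depended on the scaling.

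Co-variation was examined over all pairs of genes. Each of the 10153 pairs among the same 143 genes was given Pearson's r of log2(CPM + 1) over the 8 animals and a two-sided exact permutation p, adjusted by Benjamini-Hochberg over all pairs. Of the 903 pairs within the 43 genes, 0 passed at an adjusted p under 0.05, and 0% of all pairs passed in either direction. The smallest adjusted p among the 903 was 0.14. At an unadjusted exact p under 0.05 there were 139 pairs, 15.4%, beside 11.8% of all 10153 pairs. With Spearman's rho 0 passed and 100 had an unadjusted p under 0.05, 11.1%, beside 9.22% of all pairs. With 8 animals the exact test can give no p below 2.5e-05, at which 1 pair alone would have an adjusted p of 0.252, and 6 pairs at that p would be needed to pass. Strongly related pairs can therefore fail here, and the count of 0 does not show that the genes vary independently.

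The sign of r leaned positive, but this depended on the scaling. On the deposited scale r was above 0 in 61.8% of the 903 pairs, with a median of 0.15, beside 58.0% and 0.10 over all pairs. Rescaled without the 3 leading genes, 55.4% were above 0, with a median of 0.08, beside 51.5% and 0.02 over all pairs. With median-of-ratios factors 53.2% were, with a median of 0.04, beside 50.1% and 0.00 over all pairs. After rescaling without the leading genes 0 of the 903 pairs passed (0% of all 9730 pairs then tested). An unadjusted exact p under 0.05 was found in 130 of them, 14.4%, beside 11.3% of the 9730.

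The pairs with the smallest exact p are given as values, since none passed the adjustment. Where a pair named here has a split gene or 1 animal apart, no pooled r is given, as its animals fall into separate sets. The groups of genes further below do pool r over all 8 animals, with such genes included. The smallest exact p of the 903, 5.5e-04, was found for pairs with such a gene, ranks 59 and 71 and ranks 60 and 72 (permutation test, adjusted p = 0.14 for each). Over the 6 animals outside the gap set r was 0.94 for the first and -0.82 for the second. Rank 46 stood at 560.0, 591, 987, 1009, 713, 574, 729.8 and 309.7 CPM in animals 1 to 8. Rank 77 stood at 88.6, 74.3, 168, 194, 101, 100.2, 137 and 52.1 CPM. Both were highest in animal 4, next in animal 3 and lowest in animal 8. Over the animals r was 0.95 (exact permutation p = 5.7e-04, adjusted p = 0.14) and rho 0.93 (p = 0.0022, adjusted p = 0.27). Without animals 4 and 8 r was 0.88, and without the leading genes 0.94.

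Rank 54 followed rank 46 too, at 310.4, 297, 509.9, 476, 411, 378, 358 and 171 CPM. For this pair r was 0.96 (exact permutation p = 0.0010, adjusted p = 0.15), rho 0.81 (p = 0.022, adjusted p = 0.41) and r without animals 4 and 8 0.86. Animal 8 was the lowest at ranks 46, 54 and 77 alike.

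Ranks 41 and 51 paired without leaning on animal 8. Rank 41 stood at 551, 717, 1034, 866, 952, 1022, 762 and 693 CPM, and rank 51 at 270.3, 309, 639.9, 519, 587, 544, 378 and 390.1 CPM. Each was lowest in animal 1 and highest in animal 3. Their r was 0.95 (exact permutation p = 7.2e-04, adjusted p = 0.14) and rho 0.90 (p = 0.0046, adjusted p = 0.31). It was 0.89 without animals 1 and 3, 0.96 without animal 8 and 0.91 after rescaling.

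Ranks 43 and 44, neighbours in level, formed the remaining positive pair. Rank 43 stood at 914, 800.1, 979, 951, 707, 889, 677 and 532 CPM, and rank 44 at 965, 654, 898, 929, 624, 989.6, 442 and 425 CPM. Both were lowest in animals 7 and 8. Their r was 0.93 (exact permutation p = 9.4e-04, adjusted p = 0.14), rho 0.76 (p = 0.037, adjusted p = 0.46), and r without animals 7 and 8 was 0.87.

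With genes that have a gap left aside, the 4 negative pairs of smallest p all involved rank 76. It stood at 143, 139, 68.4, 81.6, 119, 109, 85.0 and 180.5 CPM, highest in animal 8 and lowest in animal 3. Against rank 77 r was -0.95 (exact permutation p = 6.9e-04, adjusted p = 0.14) and rho -0.93 (p = 0.0022, adjusted p = 0.27), and r was -0.93 without animals 3 and 8. Against rank 46 r was -0.90 (exact permutation p = 0.0016, adjusted p = 0.16), rho -0.90 (p = 0.0046, adjusted p = 0.31), and r -0.88 without animals 4 and 8. Where rank 76 was high, in animals 1, 2 and 8, both partners were below their own means.

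Rank 54 and rank 76 had an r of -0.87 (exact permutation p = 0.0024, adjusted p = 0.17), a rho of -0.88 (p = 0.0072, adjusted p = 0.35), and an r of -0.74 without animals 3 and 8. Rank 55 stood at 352, 257, 451, 398, 373, 439, 432 and 203 CPM, and against rank 76 had an r of -0.84 (exact permutation p = 0.0040, adjusted p = 0.20), a rho of -0.88 (p = 0.0072, adjusted p = 0.35), and an r of -0.78 without animals 2 and 8. These negative values shrank on the scale without the leading genes, to -0.83 with rank 77, -0.67 with rank 46, -0.66 with rank 54 and -0.61 with rank 55. The positive pairs kept r from 0.90 to 0.96 there.

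For a view of the whole class, the 43 genes were joined by average linkage on 1 minus r, closed at a distance of 0.5. This gave 5 groups of at least 3 genes, holding 37 of the 43. The remaining 6 genes fell into pairs. The groups were made from the values that describe them, so they carry no test.

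**Figure D4:**
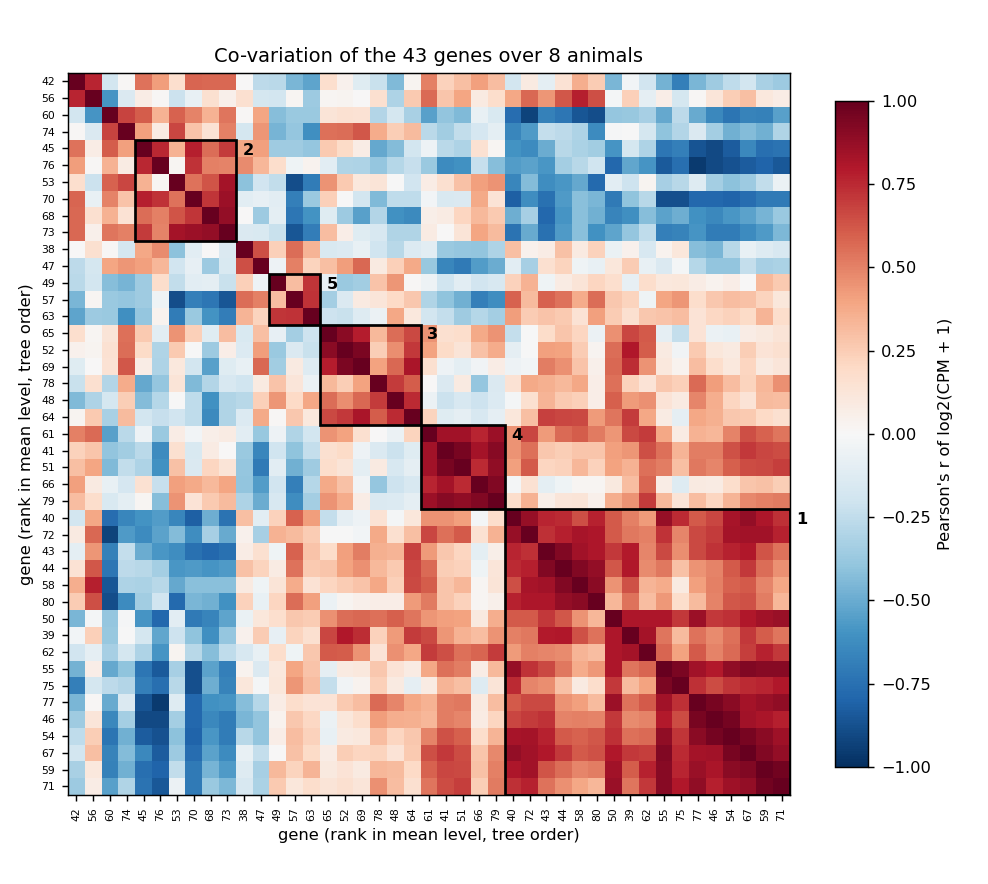
Pearson's r of log2(CPM + 1) over 8 animals for each pair of the 43 genes, both axes in tree order and labelled by rank, with black frames around the 5 numbered groups. Group 1 (17 genes) and group 2 (6 genes) are mostly positive inside and mostly negative to each other, with a median r of -0.59 between them, which is -0.04 without animal 8.

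Group 1, the largest, held 17 genes: ranks 39, 40, 43, 44, 46, 50, 54, 55, 58, 59, 62, 67, 71, 72, 75, 77 and 80. Every one of them was below its own mean log2 level in animal 8, by 0.87 on average, and all 17 were above it in animal 4, by 0.49. Animals 3 and 6 were above in 16 and 15 of the genes, and animal 2 in 2. The summed level was 6954, 5582, 8593, 9123, 6578, 8891, 6056 and 3750.2 CPM in animals 1 to 8. Within the group the median r was 0.71 with all animals and 0.49 without animal 8, so r was lower without this library.

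Members of group 1 not yet described were mostly lowest in animal 8 as well. Rank 40 ran from 339 CPM in animal 8 to 1219 in animal 6, rank 50 from 371 in animal 8 to 694 in animal 4, and rank 59 from 188 in animal 8 to 419 in animal 4. Rank 67 ran from 91.9 CPM in animal 8 to 253 in animal 3, rank 72 from 78.2 in animal 8 to 222 in animal 4, and rank 75 from 69.4 in animal 8 to 186 in animal 7. In rank 58 the lowest level, 194 CPM, was in animal 7, and in rank 62 the lowest, 186 CPM, was in animal 1. Their SDs lay between 0.32 and 0.62.

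Group 2 held ranks 45, 53, 68, 70, 73 and 76. All 6 were above their mean log2 level in animal 8, by 1.69 on average. Rank 53 stood at 737 CPM there, against 206 to 406 in the others, and rank 70 at 322 CPM, against 115 to 204. Rank 73 is in the class only through animal 8, so it was bound to be high there. The average deviation, the sum and the r of the group all include it. The summed level was 4789 CPM in animal 8 and 1109, 1558, 1142, 913, 1244, 1792 and 1041 CPM in animals 1 to 7. The median r inside the group was 0.70, and 0.06 without animal 8. Over animals 1 to 7 the pairs of the group went both ways. The lowest r was then -0.94, and that of ranks 68 and 73 was 0.69.

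Of the 102 pairs between groups 1 and 2, r was below 0 in 101 with all animals and in 56 without animal 8. A ratio of the 2 sums does not depend on the scaling of the libraries. The summed level of group 1 over that of group 2 was 6.27, 3.58, 7.52, 10.00, 5.29, 4.96 and 5.82 in animals 1 to 7, and 0.783 in animal 8. Group 1 exceeded group 2 in 7 animals and fell short of it in animal 8. The groups were formed from these same values, animal 8 included, so a low ratio there is in large part built in. Of the 4789 CPM of group 2 in animal 8, rank 45 held 2333 and rank 73 held 651.

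Group 3 held ranks 48, 52, 64, 65, 69 and 78. All 6 were below their mean log2 level in animal 5, by 0.92 on average, and all 6 above it in animal 4, by 0.74. Rank 64 ran from 124 CPM in animal 5 to 381 in animal 4, rank 65 from 132 in animal 5 to 294 in animal 4, and rank 78 from 79.7 in animal 2 to 168 in animal 4. The median r was 0.66 with all animals and 0.70 without animal 8. The 2 genes set apart by animal 5, ranks 52 and 69, belong here, and the other 4 had smaller deviations in that animal.

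Group 4 was the most closely knit, with r from 0.75 to 0.95 over its 10 pairs and a median of 0.85. It held ranks 41, 51, 61, 66 and 79. All 5 were below their mean log2 level in animals 1 and 7, by 0.63 and 0.24, and above it in animals 3, 4, 5 and 6. Rank 61 ran from 170.3 CPM in animal 7 to 405 in animal 6, and rank 66 from 97.3 in animal 1 to 289 in animal 6. The median r was 0.89 without animal 8 and 0.74 after rescaling without the leading genes. No gene of the group had an SD above 0.46, and the spread of ranks 51, 61 and 66 was near the median of the 43 genes.

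Group 5 held ranks 49, 57 and 63, with r from 0.31 to 0.72. The lowest is that of ranks 49 and 57, and the pairs with rank 63, a split gene, pool separate sets of animals. All 3 genes were below their mean log2 level in animals 3 and 8, and rank 63 set most of the average deviation of -1.31 and -1.18 there. Of the 6 genes in pairs, rank 42 ran from 446 CPM in animal 7 to 1060.4 in animal 8, and rank 56 from 162 in animal 7 to 539 in animal 3. Rank 74 ran from 57.1 CPM in animal 5 to 234 in animal 8. Ranks 38, 47 and 60 are given above.

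**Figure D5:**
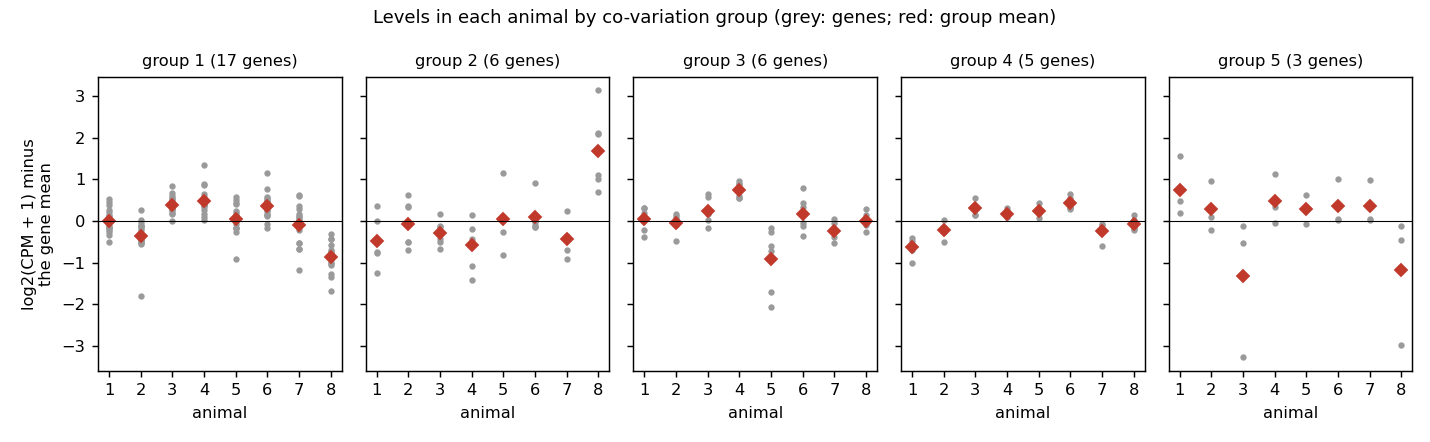
Deviation of each gene from its own mean on the log2(CPM + 1) scale (y axis) in animals 1 to 8 (x axis) for the 5 groups; grey points are genes and red diamonds the group mean. Group 1 is lowest in animal 8 (-0.87), group 2 highest there (1.69), group 3 lowest in animal 5 (-0.92) and group 4 lowest in animal 1 (-0.63).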

How the data were processed

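Small RNA libraries of 8 animals were prepared with a ScriptMiner kit from 8 µL of small RNA, per the labels. The tools listed are Novoalign 2.07.11, HTSeq, cutadapt 1.0, FastQC 0.10.0 and CASAVA 1.8.2, per the submitters' processing notes, with no roles or order. Genes with near-identical copies are uncertain, because the build, annotation, strand and handling of multiply matching reads were not given in the sources used here. The deposited values are CPM: each column sums to 1000000 over the table, and dividing the 2379 values above 0 by what 1 read is worth gave whole reads for 100% of them (tolerance 0.02 reads). A count test was not run on those reads, as there is 1 group. The table has 1 row per gene, so precursor arms are not separated.

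Python 3.11.15, numpy 2.4.6, pandas 2.3.3 and scipy 1.17.1 were used, and TMM factors came from edgeR 4.0.16 in R 4.3.3. Logs are log2(CPM + 1), which understates changes of low genes. Genes described singly were the 2 highest and 2 lowest in mean, the 8 largest and 6 smallest SDs, those with a gap, and the 4 leading pairs in each direction. On simulated data the unadjusted p of the pair test was calibrated where counts were divided by a fixed depth. It was too often small where they were divided by the simulated total, which the leading genes move. There the leading gene varied far more than in the data, where the SD of rank 1 was 0.0324. How far p is affected on the deposited CPM was therefore not tested. Simulated related pairs on the fixed-depth scale did not pass the adjustment with 8 animals. No batch or date is used here. The genes, lists and rules were chosen with earlier results of these data known. Settings tried were other scalings, pseudocounts of 0.5 and 10, rank correlation, other gene minimums, and each animal left out.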

Additional observations from a re-analysis of the deposited data

Results flagged for a closer look

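An animal was marked where its gap to the nearest other animal, divided by the whole range, exceeded Dixon's 95% critical value for 8 samples. Chance marks about 1 in 20 groups. Of the 43 genes 6 were marked (14.0%), beside 14.7% of the 143 genes whose mean reached 10 CPM. In 5 of the 6 the marked value was that of animal 8: rank 45 had 2333 CPM (ratio 0.614), rank 53 had 737 (0.624), rank 68 had 565 (0.543), rank 70 had 322 (0.567) and rank 73 had 651 (0.926). These 5 genes belong to the second co-variation group, so they share 1 library and are not separate observations. Rank 73 averaged 55.4 CPM over animals 1 to 7 and is in the class only through animal 8, so its mark supports nothing. The sixth gene was rank 48, with 817 CPM in animal 4 (0.659). On the log2 scale 4 genes were marked (9.30%, beside 7.69% of the 143): rank 42 low in animal 7 (0.546), rank 48 high in animal 4 (0.591), rank 69 low in animal 5 (0.601) and rank 73 high in animal 8 (0.702). Animal 8 thus accounts for 5 of 6 marks on the linear scale and 1 of 4 on the log2 scale. Rank 73 is counted in both, and animal 8 has no log2 mark without it.

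Across the 43 genes animal 8 had a median correlation of 0.491 with the other libraries, below the 0.710 to 0.832 of animals 1 to 7 (ratio 0.641). Its depth, 4626747 assigned reads, was within the range of the others, and its factors were 0.98 by median of ratios and 1.02 by TMM.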

How the results depend on the processing

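The rule kept 43 to 44 genes with each animal left out in turn, 45 by the median over libraries and 63 after rescaling without the 3 leading genes. Their summed share of 1.65% was 14.2% of the reads outside the 3 leading genes and 0.689% for genes of 100 to under 500 CPM, both by construction, and 1.60 to 1.68% with animals left out. The median SD, 0.48, ranged from 0.38 (without animal 8) to 0.50. Genes with an SD of at least 1 numbered 3 to 6, split genes 0 to 5 and genes with 1 animal apart 3 to 7 with animals left out. These 3 counts were the same under every other scaling and pseudocount run. Correlated pairs numbered 0 under all settings, and the smallest adjusted p among the 903 pairs ranged from 0.10 to 0.56. Leaving out 1 animal limits the exact test to p of at least 2.0e-04, so those fits could hardly call a pair and say nothing about stability. The relation of the summed share to the leading genes ranged from r = -0.95 to -0.80, and that to genes of 1000 to under 10000 CPM from 0.71 to 0.92. The latter was -0.97 on the scale without the leading genes, where the 2 classes make up nearly all reads. The relation to genes of 10 to under 100 CPM ranged from 0.44 to 0.85, was 0.16 on the scale without the leading genes, and passed with rho, 0.76. That to depth ranged from -0.22 to 0.52 and never passed. The relation to the leading genes has no value on the scale without them. Of 325 alternative SDs of the 25 singly described genes, 16 differed from the reported SD by over 1 standard error, 6 of them without animal 8, 3 under another scaling and 0 under another pseudocount. No paired analysis was possible because all 8 libraries form 1 group. At the depth of these libraries counting error was at most 4.41% of the mean for any of the 43 genes.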
